A study of Mus musculus and Homo sapiens with 20 samples.

Results

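The 3 Mical genes of the mouse, Mical1, Mical2 and Mical3, were followed through chromatin accessibility in hepatocytes. A region belonged to a gene when that gene's body was the nearest protein-coding gene body, at most 50 kb away. Of 642948 regions merged from 12 hepatocyte peak lists, 492 belonged to the family: 257 to Mical3, 221 to Mical2 and 14 to Mical1. Of these, 91 had a peak in all 12 libraries and could be compared between groups (51, 37 and 3 in the same order of genes), out of 101575 such regions in all. The family was chosen because of 1 region, at the 5′ end of Mical3. It ranked 2 of 101575 by its averaged difference between B2_minus and control. Every B2_minus value of the family is therefore given as a description, without a p-value. A Mical region is said to be called in a B2_minus comparison when its adjusted p passed the threshold. Such calls also only describe the regions and are not evidence about the family. The comparison of Ad_Cre with Ad_Cont played no part in the choice and is tested.

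ATAC-seq marks open DNA by where the transposase Tn5 inserts adapters. The hepatocytes carried a floxed Ahr gene, the gene of a ligand-activated transcription factor, and were labelled 4 weeks. Each of 4 groups had 3 libraries: B2_minus_Ad_Cre, control_Ad_Cre, B2_minus_Ad_Cont and control_Ad_Cont. B2_minus stands for deficiency of vitamin B2 (riboflavin). Ad_Cre and Ad_Cont are named as in the sample titles; Cre is the recombinase that cuts out DNA between loxP sites. All groups share the floxed allele, so control_Ad_Cont is the arm with neither B2_minus nor Ad_Cre. Sex, age, strain and the source animals of the cells are not given in the labels, which also do not say whether replicates were separate cultures. The spread behind every p-value is that between these libraries and could be technical.

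The hepatocyte lists held 200698 to 281141 peaks and 3897632 to 5557678 tags per library, and the total sequencing depth is unknown. The lowest count listed was 6 to 8 tags, depending on the library. A site missing from a list has no known count there, and it was not always weak elsewhere. For instance, chr6:121045730-121046016 in Mical3 had 30 to 43 tags in 11 libraries but no listed peak in B2_minus_Ad_Cre replicate 2. Values below are scaled tags: the tag count of the highest peak of a region, divided by the scale factor of its library. All 9 tested regions of Ahr itself stayed uncalled in all 7 comparisons. Their Ad_Cre differences, averaged over B2_minus and control, ran from −0.30 to 0.21 on the log2 scale, so the lists do not show whether the floxed part was removed. All 6 hepatocyte marker genes had tested regions, and so did all 5 endothelial, all 5 stellate cell and all 5 cholangiocyte markers. Of the 5 Kupffer cell markers 3 (Clec4f, Adgre1 and Lyz2) had none. Having tested regions therefore does not set hepatocyte markers apart from those of most other liver cells here.

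MICAL proteins are monooxygenases that carry FAD, a cofactor the cell makes from riboflavin. They oxidise methionine residues of actin, which takes filaments apart, and methionine sulfoxide reductases of the MsrB kind reverse this. MICAL1 acts below plexins, the receptors of semaphorins. MICAL2 is known for a nuclear pool that favours transcription by SRF and its cofactor MRTF. MICAL3 works with Rab8 in the docking and fusion of secretory vesicles.

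The genes differ greatly in size. On GRCm38.p6 (mm10), Mical3 lies on the minus strand of chromosome 6 at 120931546-121173757, a body of 242.2 kb. Mical2 lies on the plus strand of chromosome 7 at 112225825-112355194 and spans 129.4 kb. Mical1 lies on the plus strand of chromosome 10 at 41475860-41487030 and spans 11.17 kb. Tested regions inside the gene body numbered 1.94 per 10 kb in Mical3, 1.93 in Mical2 and 2.69 in Mical1. Inside the body lay 47 of 51 tested regions of Mical3, 25 of 37 of Mical2 and 3 of 3 of Mical1. The other 12 of Mical2 all lay upstream of its start.

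The annotated starts tie the accessibility data to sequence. RefSeq (GRCm38.p6) windows are given for a pair of inner starts of Mical3 and for the start of Mical2, and the 250 bases before each start are shown, 5′ to 3′ along the gene. They are shown because tested regions cover the Mical2 start and the inner Mical3 start at 121131022, whereas the other inner start, at 121081627, had a peak in only 5 libraries. Capitals mark matches, on either strand, to the GC box GGGCGG, the core GCGTG that AhR binds with its partner ARNT, the CCAAT box, the E-box CACGTG or the AP-1 motif TGANTCA, and the matches do not overlap one another.
Mical3, chr6:121131023-121131272, minus strand: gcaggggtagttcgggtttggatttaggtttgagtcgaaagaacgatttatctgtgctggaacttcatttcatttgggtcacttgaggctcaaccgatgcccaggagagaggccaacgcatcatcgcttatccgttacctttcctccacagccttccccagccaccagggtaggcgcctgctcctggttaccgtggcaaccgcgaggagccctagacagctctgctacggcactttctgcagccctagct
Mical3, chr6:121081628-121081877, minus strand: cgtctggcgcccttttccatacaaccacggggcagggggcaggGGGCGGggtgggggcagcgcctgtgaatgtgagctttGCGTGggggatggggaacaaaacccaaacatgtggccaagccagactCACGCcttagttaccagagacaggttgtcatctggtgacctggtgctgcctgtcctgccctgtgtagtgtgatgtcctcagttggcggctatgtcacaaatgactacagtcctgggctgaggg
Mical2, chr7:112225586-112225835, plus strand: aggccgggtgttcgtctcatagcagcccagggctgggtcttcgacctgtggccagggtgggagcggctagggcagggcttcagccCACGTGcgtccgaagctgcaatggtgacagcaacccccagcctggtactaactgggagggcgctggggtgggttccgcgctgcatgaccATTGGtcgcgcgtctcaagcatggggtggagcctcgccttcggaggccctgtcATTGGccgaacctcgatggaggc
The Mical3 window before 121131022 has no match to any of these motifs. The Mical3 window before 121081627 has 1 GC box and 2 AhR cores. The Mical2 window has 1 E-box and 2 CCAAT matches. Among 32851 promoter windows of this length, 28.2% hold an AhR core, 32.7% a GC box, 33.8% a CCAAT match, 6.02% an E-box and 6.75% an AP-1 match. A match is a string of letters, not a bound site. GC content was 55.2%, 59.6% and 66.0% in the windows as listed, against a median of 52.4% for all windows. The sequence at the outermost 5′ end of Mical3, where the region that led to the choice lies, was not used here.

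That region, chr6:121173585-121173889, covers the outermost 5′ end of Mical3 at base 121173757. In each of the 12 libraries its single peak overlapped that end, with peak middles from 32 bp upstream to 73 bp downstream of it along the gene. Scaled tags were 44.9, 36.4 and 35.4 in B2_minus_Ad_Cre, against 16.5, 17.9 and 20.2 in control_Ad_Cre. They were 36.7, 26.7 and 33.7 in B2_minus_Ad_Cont, against 17.7, 17.9 and 15.1 in control_Ad_Cont. All 6 B2_minus libraries were above all 6 control libraries. Group means were 38.9 ± 5.21 in B2_minus_Ad_Cre, 18.2 ± 1.82 in control_Ad_Cre, 32.4 ± 5.17 in B2_minus_Ad_Cont and 16.9 ± 1.55 in control_Ad_Cont (SD, n = 3 each). The log2 fold change was 1.07 ± 0.18 (SE) with Ad_Cre and 0.94 ± 0.20 with Ad_Cont, averaging 1.01 ± 0.14, a 2.01-fold difference. Its rank by that fold change was 5 with Ad_Cre and 61 with Ad_Cont.

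The sites around the 5′ end had smaller fold changes, and the differences between sites were not tested. The next tested region inside the gene, chr6:121171094-121171475, had 31.9 ± 3.59 scaled tags in B2_minus_Ad_Cre and 24.0 ± 1.3 in control_Ad_Cre. It had 30.7 ± 5.70 in B2_minus_Ad_Cont and 24.6 ± 8.53 in control_Ad_Cont, and its averaged log2 fold change was 0.36 ± 0.13. On the outer side, chr6:121177197-121177666 had an averaged log2 fold change of 0.23 ± 0.17, made of −0.16 with Ad_Cre and 0.62 with Ad_Cont. At the inner start at 121131022, the region chr6:121130948-121131203 held 34.7 ± 2.91 scaled tags in B2_minus_Ad_Cre and 26.9 ± 1.33 in control_Ad_Cre. There it held 29.9 ± 1.91 in B2_minus_Ad_Cont and 31.0 ± 1.04 in control_Ad_Cont, so the groups separated with Ad_Cre and overlapped with Ad_Cont. Its averaged log2 fold change was 0.16 ± 0.12. These regions outside the naming rule were picked after their values were seen, for their place in the gene.

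**Figure D1:**
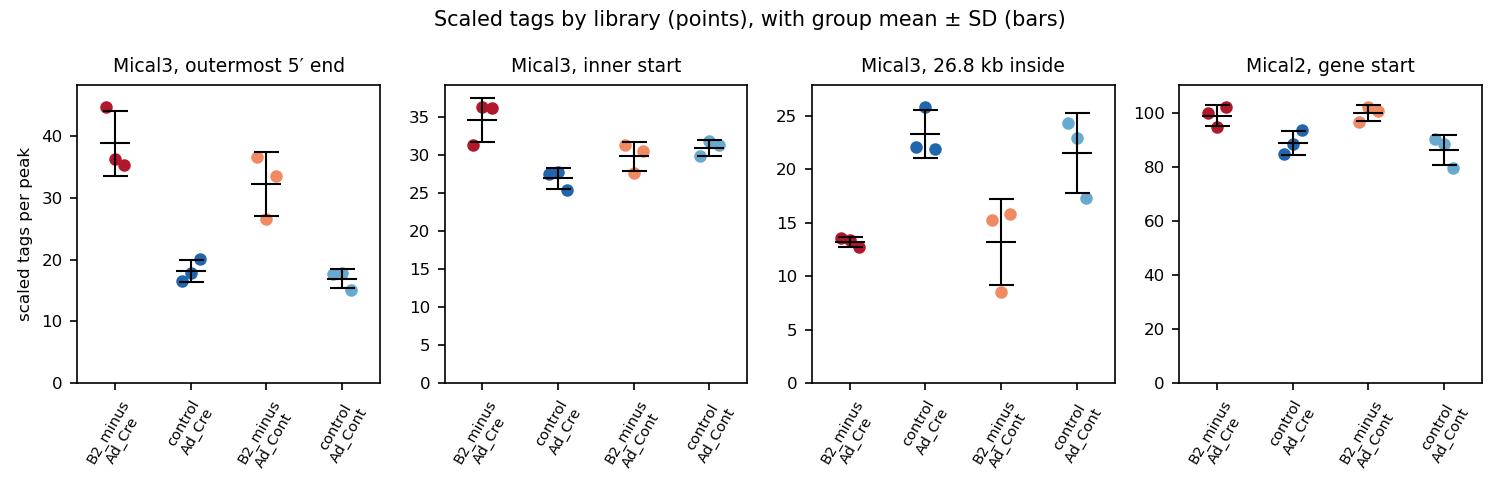
Scaled tags per library (points; y axis) in 4 groups (x axis), with the group mean and SD as bars, for the outermost 5′ end of Mical3, its inner start, the Mical3 region 26.8 kb inside the gene and the Mical2 start. At the outermost 5′ end of Mical3 the 6 B2_minus libraries lie between 26.7 and 44.9 and the 6 control libraries between 15.1 and 20.2; at the inner start the ranges overlap.

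Farther into Mical3, accessibility moved both ways. The region chr6:121146785-121147203, 26.8 kb inside the gene, was the one called lower. It had 13.6, 13.4 and 12.7 scaled tags in B2_minus_Ad_Cre, against 22.1, 25.9 and 21.9 in control_Ad_Cre. It had 15.2, 8.53 and 15.8 in B2_minus_Ad_Cont, against 24.3, 22.9 and 17.3 in control_Ad_Cont. The 6 B2_minus libraries were all below the 6 control libraries, with an averaged log2 fold change of −0.75 ± 0.17. Less than 10 kb deeper, chr6:121137300-121137554 went the other way. It had 53.2, 44.1 and 39.9 scaled tags in B2_minus_Ad_Cre, against 33.1, 25.9 and 31.5 in control_Ad_Cre. It had 32.3, 45.8 and 44.2 in B2_minus_Ad_Cont, against 35.4, 26.9 and 36.7 in control_Ad_Cont, where the ranges overlap. Its averaged log2 fold change was 0.44 ± 0.11. With Ad_Cre alone the first was no longer called without any 1 of the 6 Ad_Cre libraries or B2_minus_Ad_Cont replicate 3 (log2 fold changes of −0.86 to −0.73), nor the second without replicate 1 or 2 of B2_minus_Ad_Cre or replicate 2 or 3 of control_Ad_Cre (0.47 to 0.63). Both of these regions also lie within Gm30842, a gene annotated inside the Mical3 body, and the second covers the RefSeq promoter window of Gm30842. Without exon annotation the regions cannot be placed in exons or introns here.

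Some strong sites inside Mical3 were called higher by small amounts. The strongest region of the gene, chr6:121166162-121166477, averaged 111 ± 8.11 scaled tags in the 6 B2_minus libraries and 98.4 ± 5.22 in the 6 control libraries, a log2 fold change of 0.17 ± 0.05. At chr6:121122667-121122959 the means were 82.6 ± 6.80 in B2_minus and 71.5 ± 7.03 in control (0.21 ± 0.07). At chr6:121017743-121017995, 155.9 kb inside the gene, they were 82.5 ± 5.73 in B2_minus and 67.8 ± 7.14 in control (0.28 ± 0.07). The ranges of the 6 B2_minus and 6 control libraries overlapped at each of these sites. The other strong sites, chr6:121151729-121152149 and chr6:121159701-121159996, had log2 fold changes of 0.06 ± 0.06 and 0.08 ± 0.06, with overlapping libraries.

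In the averaged comparison 8 of the 91 Mical regions were called at an adjusted p of 0.05 (edgeR's quasi-likelihood test, Benjamini-Hochberg over all regions), against 5.78% of all regions. Of the 8, 6 were higher in B2_minus, against 2.45% of all regions, and 2 were lower, against 3.33%: 5 higher and 1 lower in Mical3, 1 and 1 in Mical2, and 0 in Mical1. With Ad_Cre alone 3 were called, all in Mical3, against 1.13% of all regions: 2 higher (0.354% of all) and 1 lower (0.774% of all). With Ad_Cont alone 2 were called, against 1.04% of all regions: the 5′ end of Mical3, higher (0.423% of all), and an upstream Mical2 region, lower (0.618% of all). Groups of 6 did not overlap at 3 Mical regions, against 2.23% of all regions. Since the family was chosen on this comparison, these counts describe it and are not evidence about it. A fit whose variance cannot fall below Poisson called 2 of the 91 in the averaged comparison, and DESeq2 called 1, the 5′ end of Mical3. Without B2_minus_Ad_Cont replicate 1 the call at that 5′ end with Ad_Cont was lost, at a log2 fold change of 0.83.

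Taken over the whole gene, Mical3 had a median averaged log2 fold change of 0.13, against 0.0049 for all regions. Of its 51 regions 38 were positive (74.5%), against 51.1% of all regions. Mical2 had a median of 0.0027 with 19 of 37 positive, and Mical1 one of −0.34 with 0 of 3 positive. With library sizes taken from the listed tags the median of all regions moved to 0.10, and Mical3, Mical2 and Mical1 to 0.22, 0.10 and −0.24, so that relative to all regions the order stayed. The Mical2 median was below 0 in 9 of 22 other settings, limma among them at −0.0094, and its sign is therefore not settled; it ran from −0.0268 without B2_minus_Ad_Cont replicate 1 to 0.1182 with a peak required in only 3 libraries. Summed over its 51 regions, Mical3 had 1940 to 1984 scaled tags in B2_minus_Ad_Cre, against 1801 to 1817 in control_Ad_Cre. It had 1879 to 1976 in B2_minus_Ad_Cont, against 1749 to 1819 in control_Ad_Cont, with no overlap in either pair. Such separation was not particular to Mical3. Sums over the actin and SRF, methionine sulfoxide reductase, FAD-dependent monooxygenase, endothelial and hepatocyte lists below were higher in B2_minus, without overlap in either pair. Those over the semaphorin-plexin, stellate cell and cholangiocyte lists were lower without overlap, and those over the MICAL-like and Rab lists overlapped.

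**Figure D2:**
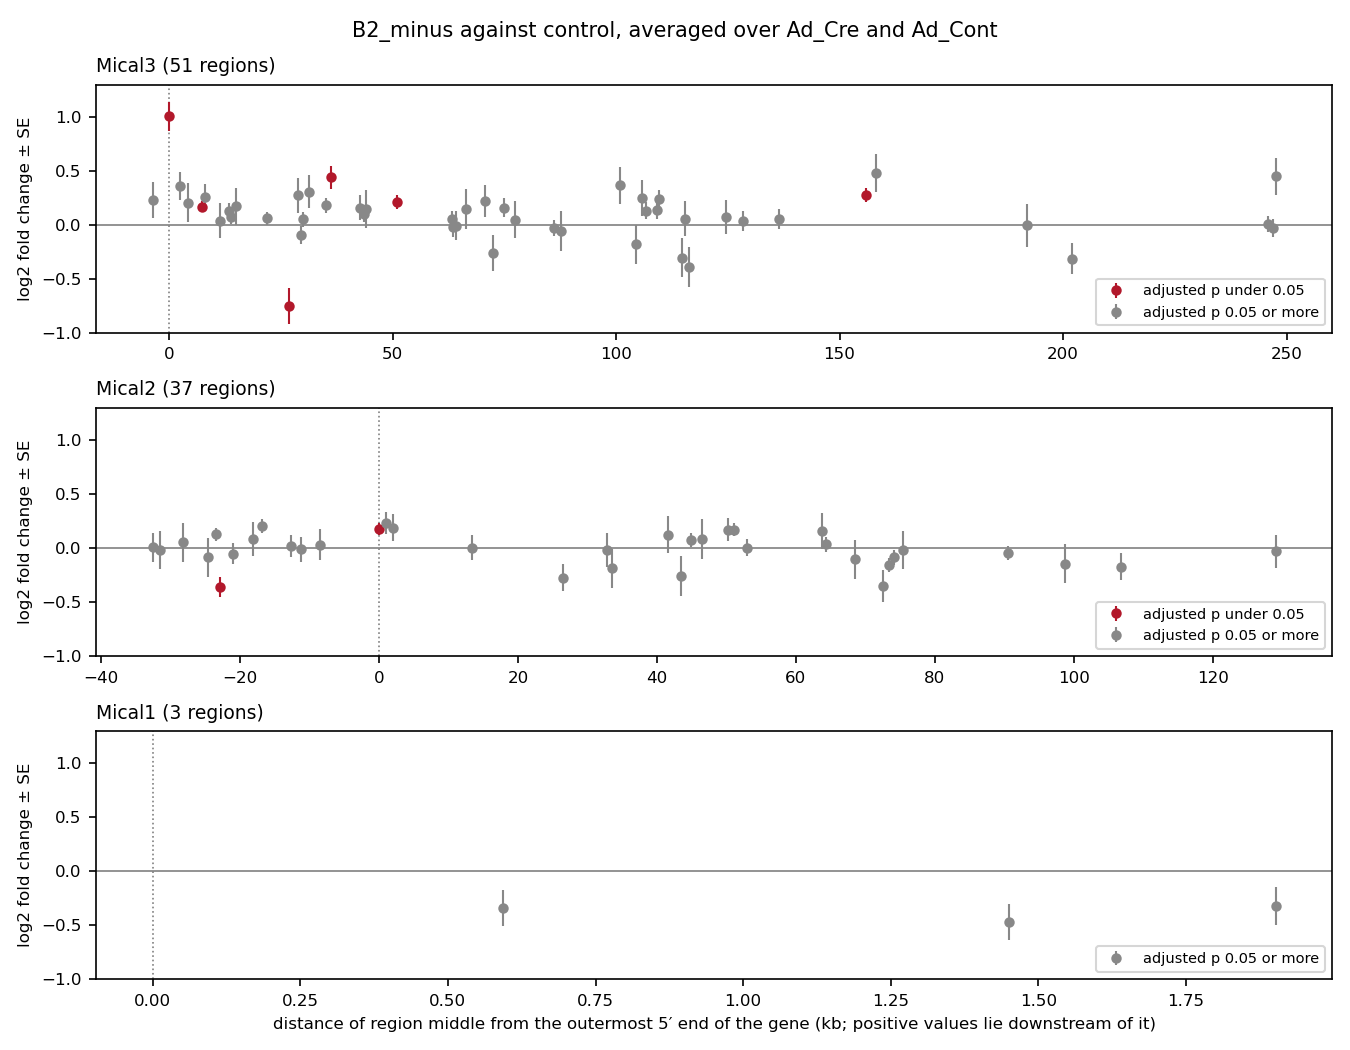
Averaged log2 fold change of B2_minus against control (y axis, with SE) for each tested region against the distance of its middle from the outermost 5′ end of the gene in kb (x axis), for Mical3, Mical2 and Mical1. Red points passed the adjusted p of 0.05, shown as a description only: 6 in Mical3, from −0.75 to 1.01, and 2 in Mical2. The 3 Mical1 points all lie below 0 and are grey.

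In Mical2, 2 of 37 regions were called in the averaged comparison, or 5.41%, near the 5.78% of all regions. Its strongest region, chr7:112225618-112225932, covers the gene start and most of the Mical2 sequence printed above. It had 100.1, 94.8 and 102.5 scaled tags in B2_minus_Ad_Cre, against 84.9, 88.5 and 93.8 in control_Ad_Cre. It had 96.8, 102.3 and 101.0 in B2_minus_Ad_Cont, against 90.6, 88.6 and 79.9 in control_Ad_Cont. The lowest of the 6 B2_minus libraries was just above the highest of the 6 control libraries, and the averaged log2 fold change was 0.18 ± 0.06. The next region inside, chr7:112226582-112227215, had means of 41.9 ± 5.07 in B2_minus and 35.6 ± 6.40 in control (n = 6 each; log2 fold change 0.23 ± 0.10). The last, near the 3′ end at chr7:112354734-112355020, had 20.4 ± 1.99 in B2_minus and 21.1 ± 4.51 in control.

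Upstream of Mical2, adjacent sites differed. The region chr7:112202831-112203111, 22.7 kb upstream and within the annotated gene Gm39070, was called lower. It had 40.7, 45.0 and 40.8 scaled tags in B2_minus_Ad_Cre, against 49.6, 45.7 and 48.2 in control_Ad_Cre. It had 35.0, 39.4 and 46.3 in B2_minus_Ad_Cont, against 59.7, 55.8 and 59.4 in control_Ad_Cont. The gap was wider with Ad_Cont (log2 fold change −0.54 ± 0.13) than with Ad_Cre (−0.18 ± 0.13), but the interaction was not called (0.36 ± 0.18, edgeR adjusted p = 0.963). The call with Ad_Cont was lost without B2_minus_Ad_Cont replicate 1 or control_Ad_Cont replicate 1 or 3 (−0.53 to −0.44). Its neighbour chr7:112202239-112202555, also within Gm39070 and the second strongest region of Mical2, had 90.2 ± 4.67 in B2_minus and 82.4 ± 2.32 in control (log2 fold change 0.13 ± 0.06). The third strongest, chr7:112276850-112277149, lies inside the gene and had 87.8 ± 6.98 in B2_minus and 77.9 ± 5.21 in control (0.17 ± 0.06). Sums over the 37 Mical2 regions overlapped, at 1362 to 1388 scaled tags in B2_minus_Ad_Cre and 1359 to 1361 in control_Ad_Cre. They were 1344 to 1405 in B2_minus_Ad_Cont and 1336 to 1409 in control_Ad_Cont.

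Mical1 was the weakest of the genes. Its 3 tested regions lie near the 5′ end of the gene body, with middles 0.594 to 1.90 kb from it, and averaged 14.2 to 18.4 scaled tags, against a median of 23.3 over all tested regions, 26.6 for Mical3 and 29.3 for Mical2. Gm51797 is annotated over all 3. At chr10:41477150-41477471 there were 15.7, 12.5 and 22.7 scaled tags in B2_minus_Ad_Cre, against 15.4, 20.9 and 18.4 in control_Ad_Cre. There were 10.8, 14.9 and 10.5 in B2_minus_Ad_Cont, against 22.1, 16.9 and 25.9 in control_Ad_Cont, so the groups separated with Ad_Cont and overlapped with Ad_Cre. The averaged log2 fold change was −0.47 ± 0.17 there, −0.34 ± 0.17 at chr10:41476220-41476688 and −0.32 ± 0.17 at chr10:41477499-41478025. None of them was called. Summed, Mical1 had 34.5 to 54.4 scaled tags in B2_minus_Ad_Cre and 49.1 to 54.7 in control_Ad_Cre. It had 36.7 to 44.2 in B2_minus_Ad_Cont and 49.8 to 71.3 in control_Ad_Cont.

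**Figure D3:**
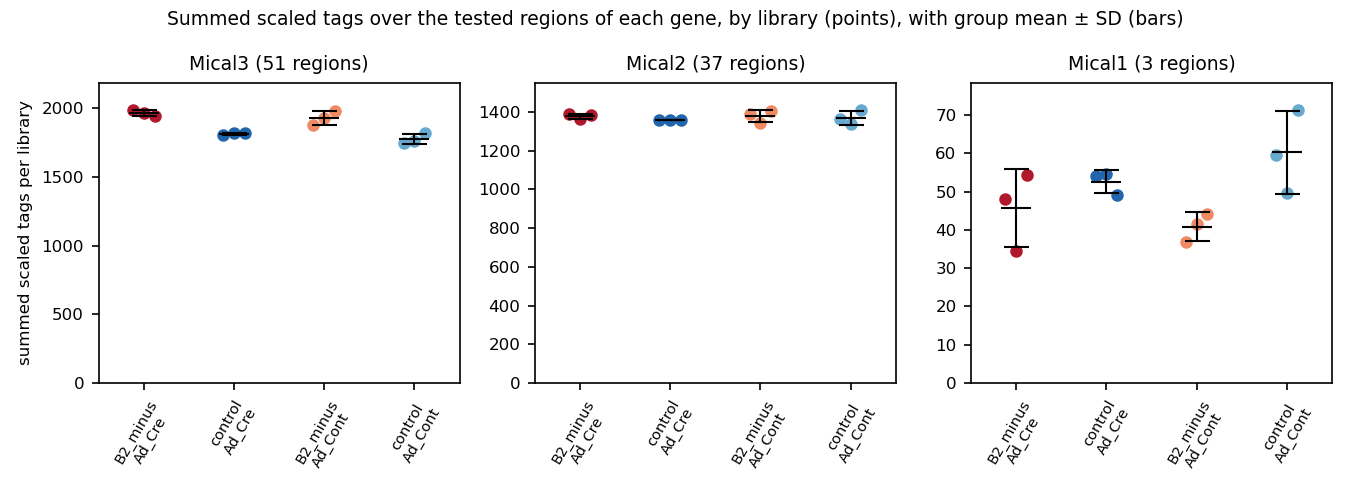
Summed scaled tags per library (points; y axis) over the tested regions of Mical3, Mical2 and Mical1 in the 4 groups (x axis), with the group mean and SD as bars. Mical3 sums are higher in every B2_minus library (1879 to 1984) than in any control library (1749 to 1819), Mical2 sums overlap, and Mical1 sums separate with Ad_Cont but not with Ad_Cre.

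The comparison of Ad_Cre with Ad_Cont asks whether the family responded where Cre was present. No Mical region was called. In B2_minus, edgeR called 0 of 91 (0.00197% of all regions were called), with 4 of 91 at an unadjusted p under 0.05 against 7.29% of all regions. In control it called 0 of 91 (0.00591% of all), with 11 at an unadjusted p under 0.05 against 7.82%. Averaged over both it called 0 of 91 (0.0955% of all), with 9 at an unadjusted p under 0.05 against 9.87%. DESeq2, limma and the other settings tried also called 0 in each. At the 5′ end of Mical3 the log2 fold change of Ad_Cre over Ad_Cont was 0.24 ± 0.16 in B2_minus (edgeR adjusted p = 0.79), 0.11 ± 0.23 in control (0.946) and 0.18 ± 0.14 averaged (0.724). At the Mical2 start the averaged value was 0.02 ± 0.06 (adjusted p = 0.953).

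The regions nearest to a call in that averaged comparison were both lower with Ad_Cre, and they were picked after their values were seen. At chr6:121142371-121142684 in Mical3, scaled tags were 21.9, 19.2 and 20.0 in B2_minus_Ad_Cre, against 23.3, 22.4 and 29.5 in B2_minus_Ad_Cont. They were 13.2, 14.9 and 16.7 in control_Ad_Cre, against 17.7, 25.9 and 21.6 in control_Ad_Cont (log2 fold change −0.42 ± 0.15, edgeR adjusted p = 0.29). At chr7:112267226-112267553 in Mical2 the log2 fold change was −0.43 ± 0.17 (edgeR adjusted p = 0.338). The 6 Ad_Cre libraries did not overlap the 6 Ad_Cont libraries at 1 Mical region, chr7:112258400-112258832 in Mical2, against 0.44% of all regions. It had means of 17.7 ± 0.45 in B2_minus_Ad_Cre and 21.9 ± 1.5 in B2_minus_Ad_Cont, and of 17.8 ± 1.78 in control_Ad_Cre and 22.6 ± 2.01 in control_Ad_Cont (averaged log2 fold change −0.33 ± 0.15, edgeR adjusted p = 0.453).

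**Figure D4:**
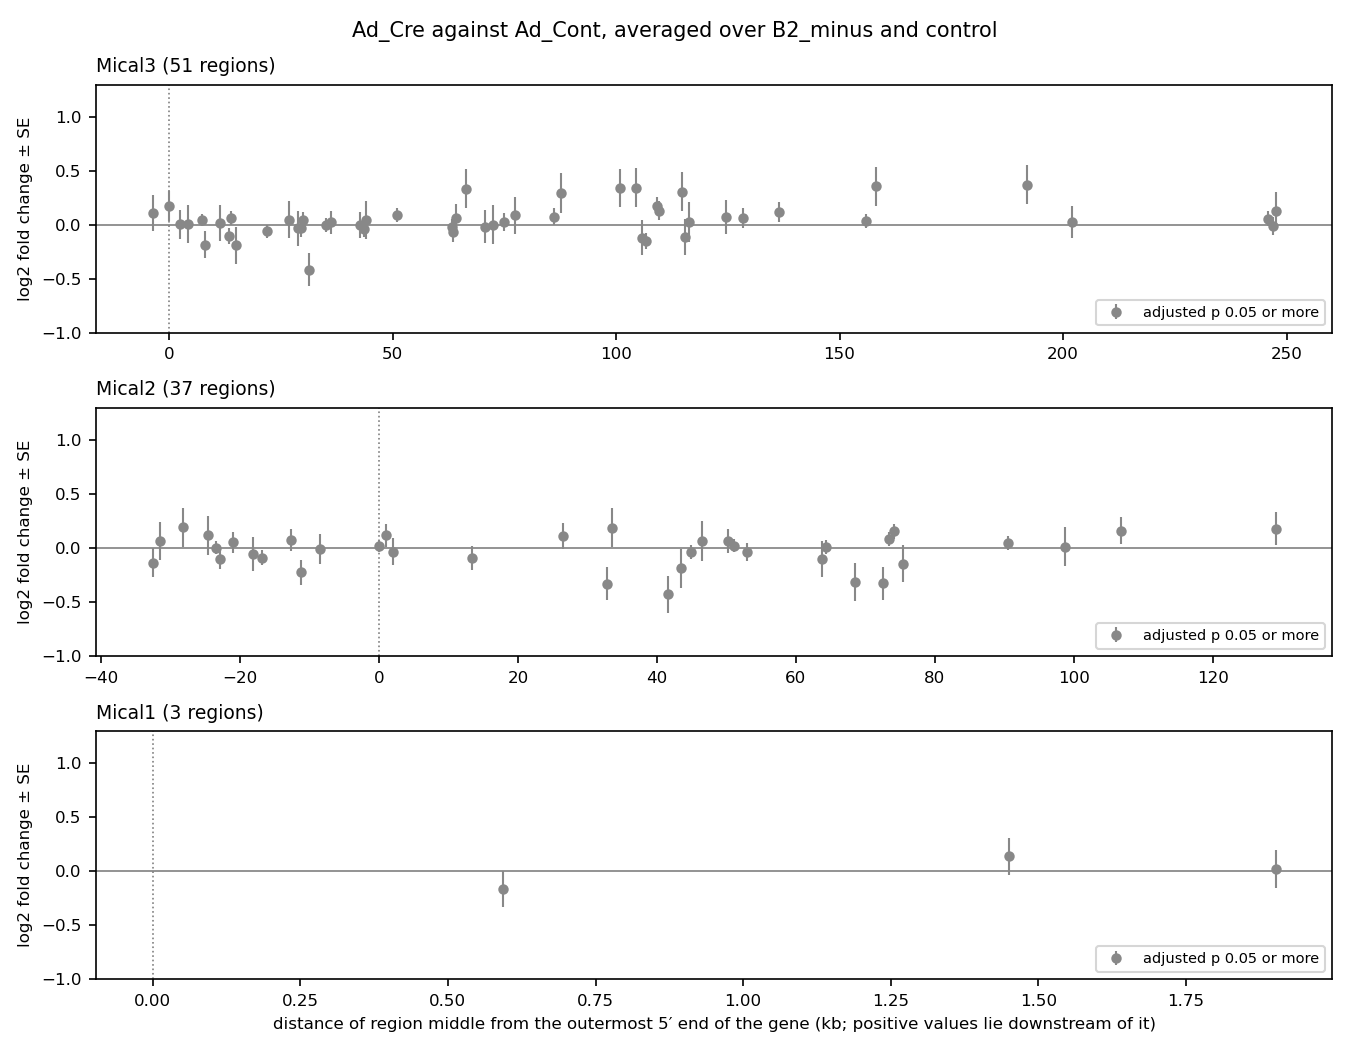
Log2 fold change of Ad_Cre against Ad_Cont averaged over B2_minus and control (y axis, with SE) for each tested region against the distance of its middle from the outermost 5′ end of the gene in kb (x axis). No point passed the adjusted p of 0.05; values run from −0.42 to 0.37 in Mical3, −0.43 to 0.19 in Mical2 and −0.17 to 0.14 in Mical1.

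Whether the B2_minus difference itself changed with Ad_Cre was tested as an interaction. edgeR called 0 of 91, and 0 of all 101575 regions, with 6 Mical regions at an unadjusted p under 0.05 against 5.14% of all regions. For the 5′ end of Mical3 the interaction was 0.13 ± 0.28 on the log2 scale (edgeR adjusted p = 0.995). With 3 libraries per group, a dependence on Ad_Cre about as large as that standard error was not detectable. Far larger ones also went uncalled: over all 101575 regions interactions ran from −1.564 to 1.558, with a lowest edgeR adjusted p of 0.578. Among Mical regions the largest interaction was at chr6:121072719-121073032 in Mical3 (−0.89 ± 0.35, edgeR adjusted p = 0.952), and it was picked after its value was seen. There scaled tags averaged 17.6 ± 4.89 in B2_minus_Ad_Cre and 18.3 ± 3.28 in control_Ad_Cre, and 18.8 ± 3.15 in B2_minus_Ad_Cont and 10.6 ± 1.56 in control_Ad_Cont.

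The other 401 Mical regions lacked a peak in at least 1 library and were not tested. Of these, 197 were listed in 1 library only (58.7% of all untested regions were), 129 in 2 to 5, 61 in 6 to 10 and 14 in 11. They were listed 285 times in B2_minus_Ad_Cre, 373 in control_Ad_Cre, 291 in B2_minus_Ad_Cont and 282 in control_Ad_Cont. The group with the most, control_Ad_Cre, also had the longest lists. No region was listed in all 6 libraries of one condition and none of the other. In 5 of 6 B2_minus and 0 of 6 control libraries stood chr6:121030324-121030562 in Mical3 (6 to 12 tags) and chr7:112266437-112266773 in Mical2 (7 to 12 tags). The reverse was seen at chr7:112223901-112224379, upstream of Mical2, in 0 of 6 B2_minus and 5 of 6 control libraries (7 to 8 tags). At chr6:121134701-121135095 in Mical3 it was 1 of 6 B2_minus and 5 of 6 control libraries (8 to 15 tags). These counts are close to the lowest that the lists hold. Over all 541373 untested regions, 1257 were listed in at least 5 B2_minus and at most 1 control library and 1577 the other way round, against 2 and 2 of the 401 Mical regions. Next to the 5′ end of Mical3, chr6:121173008-121173552 was listed in 5 of 6 B2_minus and 2 of 6 control libraries, at 8 to 10 tags. The inner Mical3 start at 121081627, with its AhR cores, was listed in 3 of 6 B2_minus and 2 of 6 control libraries, at 6 to 14 tags.

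Over the nearest 2 protein-coding genes on each side of each Mical gene, the averaged B2_minus comparison called 1 region, of 23 at Parva, and it was lower (5.78% of all regions were called, and 3.33% were called lower). Parva encodes an actin-binding adaptor of integrin adhesions. Beside Mical3, Pex26 had 10 tested regions with log2 fold changes from −0.12 to 0.21 and Bid had 9 from −0.31 to 0.13. Micalcl, a gene for a MICAL-like protein just beyond Mical2, had 9 from −0.23 to 0.28. Ad_Cre against Ad_Cont called none at any of these neighbours by edgeR (0.0955% of all regions).

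By the root mean square difference of centred log2 scaled tags over the 12 libraries, the regions most like the 5′ end of Mical3 were at Babam2 (0.156), Stab2 (0.187), Adora1 (0.198), Gsta2 (0.207) and, 14.4 kb away from its gene, Ankrd17 (0.219). The median over all regions was 0.575. No other Mical region was near them: the closest, chr6:121137300-121137554, had 0.396 and ranked 1702. The likeness describes pattern over libraries that share the contrast used in the choice.

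Genes related to MICAL proteins by function, protein family or cofactor were taken from lists drawn up with earlier results of these data known. Not all of them are known to work with MICAL proteins. Their counts in the averaged comparison stand against 5.78% of all regions called, 2.45% higher and 3.33% lower. Methionine sulfoxide reductases had 6 of 51 regions called (11.8%), 4 higher at Msra and 2 lower at Msrb3, with a median log2 fold change of 0.12. Msra and Msrb3 held all of these calls, although all 4 genes of the list had tested regions. Between Msra and Msrb3, it is Msrb3 that belongs to the MsrB kind named above as reversing the MICAL reaction. Msra had values from 0.29 ± 0.08 to 0.64 ± 0.18, and Msrb3 had −0.44 ± 0.13 and −0.70 ± 0.17. Actin and SRF genes had 9 higher and 3 lower of 116 (10.3% called, median 0.09). Mrtfb, a cofactor of SRF, had 5 of the 9 and 2 of the 3, Actb 2 higher and 1 lower, Mrtfa 1 higher (0.36 ± 0.07) and Cfl2, for a cofilin that severs actin filaments, 1 higher (0.37 ± 0.12). Semaphorin and plexin genes had 2 higher and 7 lower of 129 (median −0.05), and their 6.98% called is near the share of all regions. Plxna1, a plexin that MICAL1 can bind, fell at 2 regions (−0.58 ± 0.10 and −0.43 ± 0.09), and Sema3e fell at 2 (−0.46 ± 0.10 and −0.41 ± 0.13).

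The remaining lists had 2.86% to 5.13% of their regions called, at or below the share of all regions. Genes for MICAL-like and related Rab-binding proteins had 1 higher (Ehbp1, 0.33 ± 0.10) and 1 lower (Micall2, −0.62 ± 0.18) of 39, with a median of −0.06. Rab partners had 1 lower of 35, at Rab8b (−0.68 ± 0.18), a relative of the Rab8a that MICAL3 docks with. Other FAD-dependent monooxygenases had 2 higher of 47, both at Fmo5 (0.35 ± 0.10 and 0.56 ± 0.13). Ad_Cre against Ad_Cont, averaged, called 0 regions by edgeR in each of these lists (0.0955% of all regions).

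Marker genes of other liver cells are set against the same 5.78% of all regions called in the averaged B2_minus comparison. Over 34 endothelial regions 3 were higher and 1 lower (11.8%), at Kdr (log2 fold change 0.71) and at Stab2 (1.05, 0.81 and −0.95). The median over the 34 was 0.0245, with 20 positive. Their summed level was 936.7 to 963.0 scaled tags in B2_minus_Ad_Cre against 861.1 to 896.5 in control_Ad_Cre. It was 914.6 to 937.2 in B2_minus_Ad_Cont against 850.8 to 889.9 in control_Ad_Cont. Stellate cell markers had 0 higher and 3 lower of 16 (18.8%), with sums of 453.4 to 488.5 in B2_minus_Ad_Cre against 518.0 to 578.9 in control_Ad_Cre. Their sums were 459.7 to 473.3 in B2_minus_Ad_Cont against 524.7 to 541.5 in control_Ad_Cont. Cholangiocyte markers had 0 higher and 5 lower of 32 (15.6%), Kupffer cell markers 0 called of 7, and hepatocyte markers 5 higher and 3 lower of 81 (9.88%). A different mix of cells and a different accessibility per cell cannot be told apart in such bulk samples, and the part of these markers in the Mical values was not tested.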

How the data were processed

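Of 20 libraries, the 12 from mouse hepatocytes were used and the 8 from HepG2 cells were not analysed here. Bowtie2 and HOMER and the builds hg38 and mm10 are named, with no versions, in the submitters' processing notes. How tags were shifted, deduplicated or thresholded is not given in the sources used here. In the deposited lists each row was 1 peak of 1 library, almost always 200 bp wide, and carried its tag count as a whole number. The lists have no header, and that these are unscaled counts was inferred from their values. Peaks on Y or unplaced sequences (0.151%) were left out.

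Peaks overlapping by 1 bp were merged across the lists, the highest count per library was kept, and each region was given to the nearest of 21627 protein-coding gene bodies of GRCm38.p6 within 50 kb. Regions with a peak in all 12 libraries were fitted with edgeR 4.0.16 (TMM, glmQLFit and glmQLFTest, unbounded quasi-dispersion, R 4.3.3) in 4 groups, with Benjamini-Hochberg adjustment over all 101575 regions and a threshold of 0.05. The spread between replicates was below Poisson noise, which makes unbounded p-values smaller. The SE values of the fold changes come from the same unbounded fit and are smaller for the same reason. Regions named are those called in any comparison, the 3 strongest of each gene, those within 1 kb of a gene end and the one of largest averaged difference. The members and gene lists were chosen with earlier results of these data known. The test was run on simulated counts with Poisson spread between replicates. The real spread was lower, so that run does not show how reliable the p-values are here. Alternatives were a bounded edgeR fit, DESeq2 1.42.0, limma 3.58.1 on log2(scaled tags + 1), other scalings, filters and peak sums, a replicate block, and each library left out. Not every promoter window of the family is reported here.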

Additional observations from a re-analysis of the deposited data

How the results depend on the processing

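The number of Mical regions called depended on the variance model, the scaling, the filters and the peak sums. In the averaged B2_minus comparison 8 were called. It was 2 with the edgeR variance bounded at Poisson, 1 with DESeq2, 3 with limma on log2(scaled tags + 1), 3 with summed peaks, 4 with a mean count of at least 20 and 20 with library size from listed tags, which raised the median of all regions to 0.10. With Ad_Cre 3 were called: 1 bounded, 0 with DESeq2, 1 with limma, 10 with library size from listed tags, 1 with a peak required in only 3 libraries and 0 with summed peaks. With Ad_Cont 2 were called: 0 in the bounded, DESeq2, limma, 3-library and summed-peak settings, and 1 with the nearest gene within 10 kb. Leaving out 1 library each gave 6 to 9 calls averaged, 1 to 3 with Ad_Cre and 0 to 2 with Ad_Cont. The Ad_Cre count fell to 1 without B2_minus_Ad_Cre replicate 1 or 2 or control_Ad_Cre replicate 3. The Ad_Cont count fell to 0 without B2_minus_Ad_Cont replicate 1 and to 1 without control_Ad_Cont replicate 1 or 3. The Ad_Cre against Ad_Cont comparisons and the interaction gave 0 calls in all 22 other settings. The cause of these differences was not tested. Calls in the B2_minus comparisons describe the Mical regions under each setting and are not evidence about the family.

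The 5′ end of Mical3 had averaged log2 fold changes of 0.95 to 1.12 over the 22 other settings. No fold change of a called region changed sign, but the Mical2 median did in 9 settings, of which 6 left out 1 library. The Mical2 start and the strongest Mical3 region, both under 0.20, passed the threshold in neither the bounded, DESeq2, limma, higher-count nor summed-peak settings. Each also lost its call without replicate 1 or 3 of B2_minus_Ad_Cre, replicate 1 or 2 of control_Ad_Cre, or replicate 3 of B2_minus_Ad_Cont. The Mical2 start lost it too without B2_minus_Ad_Cont replicate 2 or control_Ad_Cont replicate 3 (0.15 to 0.18 over its 7 losses), and the Mical3 region without control_Ad_Cre replicate 3 or control_Ad_Cont replicate 2 (0.13 to 0.17 over 7). The region at 121122667 lost its call without B2_minus_Ad_Cre replicate 2, control_Ad_Cre replicate 3, B2_minus_Ad_Cont replicate 1, or control_Ad_Cont replicate 1 or 3 (0.17 to 0.19). Whether replicate numbers pair the samples is not settled. Deviations of log2(scaled tags + 1) from group means correlated at −0.0161 to 0.0123 between same-numbered libraries of different groups. Between libraries with other numbers they correlated at −0.0133 to 0.0141. The deviations include counting noise, so such small correlations do not exclude pairing. With the replicate block the calls were 8 averaged, 3 with Ad_Cre and 2 with Ad_Cont. Depth limits most the sites close to the listing floor of 6 to 8 tags.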
